A study of Rattus norvegicus with 6 samples.

Results

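Sequence tags that differ from their miRNA hairpin by a single A-to-G change, away from both ends of the tag, are the usual starting point in a search for RNA editing in small RNA libraries. Such tags were taken from the annotated hairpins where the changed base was the 4th or a later base counted from either tag end, and predicted hairpins were left out. There were 354 such tag sequences among the 9522 of the series, in 823 listings by tag, hairpin and library. They marked 219 hairpin sites, which became 191 sites after hairpin copies with the same mature miRNA were joined, in 70 of the 369 annotated miRNA arms. The same libraries held 956 sites of the other 11 types of internal substitution, which give the level of changes that sequencing, PCR and mapping leave in these tags. The choice of members used the type and place of the change and no comparison between libraries.

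The 6 libraries came from RSC96, a rat Schwann cell line, kept for 48 h in high glucose (3 libraries) or in low glucose as the control (3 libraries). The series title speaks of exosomes and the labels do not say whether vesicles or cells were sequenced, while the extraction text names retina. Nothing in the labels says that the 3 libraries of a group came from separate cultures, so the p-values below speak only of the spread among the libraries at hand, and that spread may be technical. Both groups come from the same single cell line.

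ADAR enzymes convert adenosine to inosine in double-stranded RNA, and the stems of primary miRNA transcripts are among their substrates. Inosine pairs like guanosine, so an edited adenosine is read as G after reverse transcription. An edit within the seed, the bases near the 5′ end with which a miRNA recognises its targets, can redirect the miRNA to other messenger RNAs. ADARs favour an adenosine with U on its 5′ side and G on its 3′ side. Editing of miRNAs is best known from the brain, and a single substitution in a short read can also come from PCR, from base calling or from a related miRNA.

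The mature sequences of the miRNAs on which the results turn are given first, from RefSeq (build GRCr8), with the seed (bases 2 to 8) in capitals. Sites are named by the base of the mature miRNA, its position counted from 1 at the mature 5′ end, and the base in the tag.
miR-21-5p (chr10:71902653-71902674, minus strand): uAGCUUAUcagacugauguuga
let-7a-5p (copy at chr17:16320145-16320166, plus strand): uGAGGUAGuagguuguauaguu
let-7b-5p (chr7:118684044-118684065, plus strand): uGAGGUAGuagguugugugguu
let-7c-5p (copy at chr7:118683636-118683657, plus strand): uGAGGUAGuagguuguaugguu
miR-34b-5p (chr8:60306657-60306679, minus strand): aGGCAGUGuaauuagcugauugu
miR-193a-5p (chr10:65170336-65170357, plus strand): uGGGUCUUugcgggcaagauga
miR-22-3p (chr10:60805387-60805408, plus strand): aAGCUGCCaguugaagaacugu
miR-99b-5p (chr1:67350070-67350091, plus strand): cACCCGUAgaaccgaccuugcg
The 3 let-7 miRNAs share a seed. A comparison of the mature sequences shows that A17G turns let-7c-5p into let-7b-5p and that A19G turns let-7a-5p into let-7c-5p.

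The tags below carry the changed base as a capital G and are shown because each stands for a kind of candidate: a change whose tag is also listed under another miRNA (let-7, miR-34b), a change that rests on 1 tag (miR-22-3p, miR-30d-5p), and a change carried by several tags (miR-99b-5p, miR-125b-5p). Tags are written with T, as listed.
let-7c-5p A17G, tag of copy 2: tgaggtagtaggttgtGtggtttt
let-7c-5p A17G, tag of copy 1: tgaggtagtaggttgtGtggttta
let-7a-5p A19G: ctgaggtagtaggttgtatGgtt
miR-34b-5p A11G: aggcagtgtaGttagctgattgt
miR-22-3p A9G: aagctgccGgttgaagaactgt
miR-30d-5p A21G: tgtaaacatccccgactggaGgct
miR-99b-5p A11G: cacccgtagaGccgaccttgc
miR-125b-5p A9G: tccctgagGccctaacttgtga

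The libraries differed strongly in depth. The 3 high glucose libraries held 963706 to 1354456 listed counts and the 3 low glucose libraries 114615 to 148143, and no tag with fewer than 2 reads was listed. Schwann cell and nerve miRNAs (4 of 5 listed, with miR-138-5p absent) summed to 147300 to 220100 counts per 1000000 listed counts (CPM) in high glucose and 426300 to 462900 in low glucose, with miR-21-5p alone at 127600 to 190600 against 420200 to 457400 CPM. Other members of that list went the other way: miR-222-3p was at 14330 to 22150 CPM in high and 1958 to 2465 CPM in low glucose, and miR-221-3p at 5368 to 7339 against 3456 to 3682 CPM. Markers of other sources moved as well: neuronal miRNAs (3 of 4 listed, miR-124-3p absent) summed to 15910 to 21130 CPM in high glucose against 2815 to 4563, liver miRNAs (3 of 3 listed) to 9214 to 14920 against 3220 to 4572, and erythroid miRNAs (3 of 3 listed) to 687 to 914 against 3247 to 6230. Retina miRNAs (2 of 4 listed, miR-182-5p and miR-96-5p absent) summed to 18.7 to 40.7 CPM in high and 40.4 to 87.3 CPM in low glucose. Their part in the results below was not tested. The group differences in depth and in these markers cannot be told apart from glucose.

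The 191 A-to-G sites carried 8568 reads, 25.7% of the 33348 reads with any internal substitution. High glucose replicates 1 to 3 held 2134, 2781 and 3043 of these reads, and low glucose replicates 1 to 3 held 188, 250 and 172. The number of sites was larger in the deeper libraries, with 117, 142 and 143 in the high glucose libraries and 22, 28 and 16 in the low glucose libraries. A smaller difference remained at equal depth, as given below. Reads were concentrated: the 3 sites with the most reads held 31.2% and the 10 with the most held 52.0%. Of the 191 sites, 90 had fewer than 10 reads, 62 were seen in a single library and 8 were seen in all 6. Members just inside the end rule, with the change at the 4th base from an end, carried 200 reads at the 5′ side and 1138 at the 3′ side, while tags just outside it, at the 3rd base, carried 1785 and 241.

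A-to-G was the most frequent type by reads, but T-to-C, the mirror transition, was close to it. T-to-C had 196 sites and 7979 reads, G-to-A 193 sites and 4218 reads, and C-to-T 147 sites and 4707 reads. The median share of the arm, that is substituted reads over all reads that cover the base internally, was 0.0487% for the 101 A-to-G sites with at least 10 reads and 0.0445% for the 107 T-to-C sites under the same minimum. It was 0.0281% for G-to-A and 0.0474% for C-to-T. The A-to-G median was thus the highest of the 4 transitions, close to C-to-T and T-to-C and above G-to-A.

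Nearly every adenosine that was read deeply carried some A-to-G reads. In the 31 arms with at least 20000 covering reads, 119 of 124 internal adenosines (96.0%) carried the change, and the same arms had T-to-C at 120 of 132 (90.9%) of their uridines. Counting only tags that were listed under no other miRNA, 112 of the 124 adenosines (90.3%) were changed, with a median share of 0.0261% and a 90th percentile of 0.114%. The matching T-to-C values were 0.0247% and 0.0962%. At positions with 1000 to 20000 covering reads, 59 of 233 adenosines and 66 of 278 uridines carried the change. Ranked within each of the 31 deep arms, again without the tags listed under another miRNA, the position with the largest share was an A-to-G change in 11 arms, a T-to-C change in 11, a C-to-T change in 5, a G-to-A change in 3 and a T-to-G change in 1.

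miR-21-5p, an abundant miRNA that many tumours and injured tissues raise, held 24.2% of all A-to-G reads. Within the low glucose libraries it held 64.9%, 66.4% and 66.9% of them, and it made up 46.7%, 50.5% and 49.8% of the annotated counts there. Within the high glucose libraries it held 25.6%, 16.8% and 21.5% of the A-to-G reads and 20.4%, 13.6% and 18.4% of the annotated counts. The arm thus gave a larger part of the changed reads than of all reads in all 6 libraries.

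Its 4 internal adenosines were all changed, at hairpin positions 24, 27, 29 and 33 of a 92-base hairpin. miR-21-5p A12G had 302, 259 and 330 reads in high glucose replicates 1 to 3 and 66, 89 and 57 in low glucose replicates 1 to 3. As a share of the arm these were 0.164%, 0.159% and 0.137% against 0.127%, 0.131% and 0.114%. The 3 high glucose shares all lay above the 3 low glucose shares, by a small margin (log2 difference 0.30, SE 0.10, edgeR quasi-likelihood test, Benjamini-Hochberg adjusted p = 0.306 over all 497 sites tested).

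The second of the miR-21-5p sites, A10G, had shares of 0.0604%, 0.0576% and 0.0619% in high glucose and 0.0520%, 0.0576% and 0.0562% in low glucose. Its log2 difference was 0.12 (SE 0.11, edgeR adjusted p = 0.605), and the groups met at 0.0576%. miR-21-5p A16G had 91, 92 and 122 reads against 13, 21 and 21, and shares of 0.0496%, 0.0566% and 0.0508% against 0.0250%, 0.0310% and 0.0422%. The groups did not overlap, and the log2 difference was 0.68 (SE 0.20, edgeR adjusted p = 0.244), which did not pass. When only the 20 sites with at least 10 expected reads in every library were tested, this site alone among 4 A-to-G sites passed (edgeR adjusted p = 0.00679), where 15.0% of the 20 were called higher.

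The seed adenosine of miR-21-5p, A7G, was the lowest of the 4 sites. Its shares were 0.0234%, 0.0129% and 0.0225% in high glucose and 0.0308%, 0.0251% and 0.0181% in low glucose, with overlapping groups (log2 difference -0.32, SE 0.31, edgeR adjusted p = 0.535). The largest change of another type in this arm, T5C, reached 0.0687% over the 6 libraries, below A12G at 0.146% and above A10G at 0.0592%.

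The let-7 miRNAs, which restrain proliferation and are known for their shared seed, carried A-to-G at 2 adenosines of their common sequence. Nearly every deep adenosine carried the change, as given above, so this is no trait of the family. The seed site A7G had pooled shares of 0.0648% in let-7f-5p, 0.0544% in let-7c-5p, 0.0486% in let-7a-5p, 0.0448% in let-7b-5p, 0.0357% in let-7g-5p and 0.0253% in let-7i-5p. A10G ran lower in 5 of these 6 arms, with let-7a-5p (0.0543%) as the exception, and its lowest value was 0.0127% in let-7i-5p. In each of the 6 arms the largest T-to-C share lay above both A7G and A10G. It ran from 0.0662% in let-7f-5p to 0.1125% in let-7c-5p. let-7c-5p A7G had 58, 78 and 96 reads in the high glucose libraries and none in low glucose. At the high glucose share each low glucose library would hold 1.02 to 1.20 such reads, below the 2 reads a tag needs to be listed, so reads of this site in low glucose could easily go unlisted at this depth.

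Among deep positions not shared with another miRNA, the largest pooled share was miR-122-5p A10G at 0.334%. miR-122-5p is the main liver miRNA. This site had 41, 53 and 47 reads in high glucose and 3, 3 and 0 in low glucose, and shares of 0.360% ± 0.120 (SD, n = 3) against 0.440% ± 0.381. Of the low glucose shares, 2 lay above all 3 high glucose shares and 1 was at 0 (edgeR adjusted p = 0.796). The neighbouring C11T change in the same arm reached 0.307%, so the arm held a second change of almost the same size that was no A-to-G. The liver miRNA sum was higher in high glucose, as given above.

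miR-22-3p A9G followed at 0.292%, below the C8T change beside it in the same arm at 0.58%. All reads of A9G were in the single tag shown above. Its reads were 2, 26 and 50 in high glucose replicates 1 to 3 and 0 in each low glucose library, so high glucose replicate 1 stood apart from the other 2 of its group. miR-320-3p A16G had 24, 40 and 27 reads against 0, 3 and 4, a pooled share of 0.189%. miR-30d-5p A21G had 72, 83 and 84 reads in high glucose, an even share of 0.188% ± 0.00921 (SD, n = 3), and 0 in low glucose, where 2.31 to 2.63 reads would be expected in each library at that share. It rested on 1 tag of 24 bases with the change at the 4th base from its 3′ end, and miR-30a-5p A21G (43 reads, 0.148%) rested on 1 tag of the same form.

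Other deep sites were carried by several tags. miR-125b-5p A9G had 34, 44 and 38 reads in high glucose and 4, 4 and 0 in low glucose (0.160% ± 0.0172 against 0.119% ± 0.106, SD, n = 3). Pooled, it stood at 0.157%, below C11T in the same arm at 0.241%. The same base in its relative miR-125a-5p, A9G, reached 0.101%, above T5C there at 0.0772%. miR-99b-5p A11G had 22, 50 and 66 reads and miR-99b-5p A15G had 20, 51 and 38 reads in high glucose, with 0 in every low glucose library. In miR-423-5p, A19G reached 0.165% and A13G 0.136%. These sites lay outside the seed.

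Many candidate tags were listed under more than 1 miRNA. Of the 8568 reads, 2179 (25.4%) were in tags also listed with a single mismatch under a different miRNA or a predicted hairpin. This held for all reads of 16 sites and for some reads of 3, against none of the reads of 172 sites. The share was 27.0%, 26.4% and 26.5% in high glucose and 11.2%, 9.60% and 9.30% in low glucose. Over both groups it was 1.81% for T-to-C, 10.98% for C-to-T, 13.0% for G-to-A and 19.2% for T-to-G, and among the types with few reads it reached 43.5% (A-to-T, 161 reads). No candidate tag matched another listed hairpin without a mismatch.

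The let-7 family held most of these reads. At 4 of the 167 sites inside a RefSeq mature miRNA, the change to G gave exactly the sequence of another rat mature miRNA, and those 4 sites held 1607 reads: let-7c-5p A17G (let-7b-5p), let-7a-5p A19G (let-7c-5p), let-7f-5p A12G (let-7a-5p) and miR-101a-3p A16G (miR-101b-3p). let-7c-5p A17G had 281, 356 and 388 reads in high glucose and 9, 7 and 7 in low glucose, and 98.9% of its 1048 reads were shared. Its tag ending in T (732 reads) was also listed under let-7b with C24T, and its tag ending in A (304 reads) under let-7b with C24A, in both cases at the last base of the tag. The share of the arm was 0.251% ± 0.0346 in high and 0.376% ± 0.0438 in low glucose (SD, n = 3, log2 difference -0.59, SE 0.21, edgeR adjusted p = 0.339), and the groups did not overlap. Without the shared tags 12 reads remained, too few for a fold.

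let-7a-5p A19G had 165, 137 and 215 reads in high glucose and 0, 2 and 2 in low glucose. All 521 reads were shared, 503 of them in the tag shown above, which was also listed under both let-7c copies with its first base changed (T1C or G1C). miR-34b-5p A11G had 35, 73 and 32 reads against 6, 9 and 4, all in the tag shown above, which was also listed under miR-34c with C23T at its last base. Those reads were 68.6%, 83.0% and 48.5% of the arm in high glucose and 75.0%, 64.3% and 66.7% in low glucose, with overlapping groups (exact permutation test, two-sided, p = 1.0). The arm was shallow, with 51, 88 and 66 covering reads in high glucose and 8, 14 and 6 in low glucose. miR-34c-5p had far more, 4400, 6595 and 5417 covering reads at position 10 against 1083, 1383 and 707. miR-146b-5p A18G had 36, 73 and 53 reads against 3, 5 and 3, and 60.7% of them were also listed under miR-146a (log2 difference 1.30, SE 0.46, edgeR adjusted p = 0.309).

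Few sites rose above the other substitution types. The level was set at the 95th percentile of the shares of the 448 other sites with at least 10 reads, 0.607% of the arm. It was passed by 5 of 101 A-to-G sites (4.95%) and, by its construction, by 23 of 448 other sites (5.13%). With a minimum of 10 reads, a site of any type in an arm of few covering reads passes this level by that minimum alone. With the level set anew without tags listed under several hairpins, 7 of 74 A-to-G sites passed (9.46%, against 5.2% of the other sites), and without tags listed under another miRNA 5 of 91 (5.49% against 5.06%). After thinning to the smallest library 2 of 19 passed (10.5% against 6.25%), and with at least 20 reads 4 of 68 (5.88% against 5.07%). Beyond 5 bases from the ends 3 of 79 passed (3.80% against 5.14%), with 4 or more bases on each side 3 of 91 (3.30% against 5.19%), and at the 99th percentile 2 of 101 (1.98% against 1.12%). In the high glucose libraries alone 5 of 98 passed (5.10% against 5.06%) and in the low glucose libraries alone 2 of 8 (25.0% against 7.14%). The 5 over all libraries were let-7a-5p A19G, miR-34b-5p A11G, miR-193a-5p A16G, position 10 of the miR-466c hairpin and position 14 of the miR-3557 hairpin. The first 2 of these and the miR-466c site were shared with another miRNA or a predicted hairpin. The miR-3557 site had 13 of 13 covering reads changed, 10 in high glucose replicate 2 and 3 in replicate 3. The miR-466c site had 15, 2 and 45 covering reads in high glucose and 0, 2 and 3 in low glucose. In the arms of miR-3557, miR-466c, miR-34b-5p and miR-193a-5p, any site with 10 reads would thus pass the level.

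miR-193a-5p A16G, at position 35 of its 86-base hairpin, was the remaining site above the level. Whether its tags with G came from the rat hairpin or from the miR-193a of another species was not tested, so the shares below are those of a tag form and not of an edit. It had 8, 15 and 21 changed reads of 30, 50 and 77 covering reads in high glucose, or 26.7%, 30.0% and 27.3%. In low glucose it had 11, 11 and 22 of 15, 19 and 24, or 73.3%, 57.9% and 91.7%. The exact binomial (Clopper-Pearson) 95% intervals, which cover counting error only, ran from 12.3% to 45.9% over the high glucose libraries and from 33.5% to 98.97% over the low glucose libraries. All 3 low glucose shares lay above all 3 high glucose shares (28.0% ± 1.78 against 74.3% ± 16.9, SD, n = 3, exact permutation test, two-sided, p = 0.1, the smallest that 3 against 3 allows).

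The changed reads of miR-193a-5p came to 11.9 ± 3.60 CPM under high and 118 ± 64.1 CPM under low glucose (SD, n = 3, exact permutation p = 0.1). The unchanged reads came to 30.5 ± 9.65 against 34.6 ± 18.4 CPM (exact permutation p = 0.8). The arm fell below the 200 covering reads required for the fit across sites. Without that filter its log2 difference was -1.41 (SE 0.31, edgeR adjusted p = 0.00128 over 1117 sites). The erythroid miRNA sum moved the same way as the changed reads, from 687 to 914 CPM in high glucose to 3247 to 6230 in low glucose, and its part in this result was not tested.

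The bases beside the changed adenosines were compared over the 124 deep positions, using tags not shared with another miRNA. The median share was 0.0208% after a U, 0.0277% after an A, 0.0260% after a C and 0.0334% after a G. Before the base on the 3′ side it was 0.0454% for C, 0.0408% for G, 0.0205% for A and 0.0175% for U. In the triplet UAG, 19 of 22 adenosines were changed at a median share of 0.0245%, against 0.0261% over all 124. Adenosines after a U thus had the lowest median and those after a G the highest. T-to-C at the deep uridines was also lowest after a U (0.0132%) and highest after a G (0.0496%). These positions share libraries and differ in depth, so the medians are a description.

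The median share was close between the seed and the rest of the miRNA, and the pooled rate was lower in the seed. Of 41 deep adenosines in bases 2 to 8, 38 were changed at a median share of 0.0254%, and of the 83 outside it, 74 were changed at 0.0268%. Pooled over reads, the deep seed adenosines had 322 changed reads per 1000000 covering reads and the others 516, while T-to-C had 551 in the seed and 385 outside it. Over all depths, 59 of the 191 sites lay in bases 2 to 8 and carried 1426 reads. miR-10b-5p was counted from its RefSeq start, but in its tag with the most A10G reads that change is tag base 12. miR-10b-5p A7G (51 reads), counted in the seed here, would lie outside bases 2 to 8 of that tag form.

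A list of 21 miRNA arms was then read, for which A-to-I editing in the miRNA or elsewhere in its hairpin has been described in mammals. Whether the sites below are the described bases was not examined, and bases near a tag end fall outside the rule used here. The arms best known for it, miR-376a-3p, miR-376b-3p, miR-376c-3p, miR-381-3p and miR-411-5p, were not among the listed miRNAs, and miR-379-5p had 9 counts in all. Of the 14 listed arms, 7 had internal A-to-G sites, 23 sites with 440 reads, of which 13 reads were in low glucose. Over the whole series 70 of 369 annotated arms had a site. The 7 arms were the most deeply read of the 14, so their number is not read as an enrichment. The largest shares were miR-22-3p A9G, given above, and miR-378a-3p A6G (20 reads, 0.259%). The miR-378a-3p reads lay mostly in 1 library, with 3, 15 and 2 in high glucose replicates 1 to 3 and 0 in each low glucose library. miR-151-3p A9G had 52 reads (0.138%), below the G10A change beside it at 0.785%. miR-24-3p A15G reached 0.125%, above T5C in its arm at 0.119%, and miR-27b-3p A4G 0.0770%, below G10A at 0.101%. The 3 sites of miR-99a-5p lay between 0.0127% and 0.0198%, below T7G at 0.0609%. Of the 7 listed arms without a site, miR-99b-3p had no internal adenosine, and the other 6 had at most 420 counts.

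Read as a whole per library, the A-to-G rate was higher in high glucose. Per 1000000 internal adenosines covered, the high glucose libraries held 611 ± 4.46 changed reads and the low glucose libraries 432 ± 22.5 (SD, n = 3, exact permutation test, two-sided, p = 0.1). The other changes did not all move alike: T-to-C was 452 ± 22.4 against 266 ± 14.7, and C-to-T was 421 ± 28.0 against 440 ± 30.1. After every library was thinned to 114497 reads and the minimum of 2 reads per tag applied again, A-to-G was 451 ± 44.0 against 435 ± 25.1 (exact permutation p = 0.7), with overlapping groups. The same thinning left T-to-C higher in high glucose, at 342.3 ± 25.28 against 268.5 ± 14.47, without overlap (exact permutation p = 0.1). C-to-T was then lower in high glucose, at 315.1 ± 53.84 against 421.1 ± 46.25, also without overlap (exact permutation p = 0.1). Thinned libraries held 33, 33 and 39 sites in high glucose and 21, 26 and 16 in low glucose, so the site numbers did not overlap at equal depth.

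As a share of all internal substituted reads, A-to-G accounted for 25.8% ± 0.797 with high glucose against 25.0% ± 2.75 with low glucose (SD, n = 3, exact permutation p = 0.7). The ratio of the A-to-G to the T-to-C rate was 1.41, 1.28 and 1.36 in high glucose and 1.66, 1.69 and 1.53 in low glucose, with no overlap (exact permutation p = 0.1). With the tags shared with another miRNA left out, the ratio was 1.01 ± 0.0448 against 1.46 ± 0.0729 (SD, n = 3), still without overlap. After thinning to the smallest library it was 1.54, 1.10 and 1.35 against 1.66, 1.68 and 1.52, and the groups overlapped (exact permutation p = 0.2). miR-21-5p, whose largest change was A12G, made up a larger part of the low glucose libraries, as given above, and its part in the ratio was not tested.

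Site by site, no A-to-G share passed the test between the glucose groups. Of 497 sites of all 12 types tested with edgeR's quasi-likelihood test, 90 were A-to-G, and 0 of 90 were called in either direction (0.0% of all sites tested were called higher and 0.0% lower). At an unadjusted p under 0.05 there were 24 A-to-G sites, 23 of them higher in high glucose, among 73 sites of all types. Of the 24, only miR-21-5p A12G and A16G, miR-146b-5p A18G and miR-99b-5p A8G had any reads in low glucose. A site without low glucose reads can only come out as higher in high glucose. The low glucose libraries were far shallower, with a minimum of 2 reads per tag, so no direction is read from these counts. DESeq2 called 0 A-to-G sites, where it called 0.402% of the 497 sites higher and 0.201% lower, with 16 A-to-G sites at an unadjusted p under 0.05. The lowest edgeR adjusted p of an A-to-G site was 0.244. With library size in place of the reads of the arm, so that a change of the arm itself entered, 13 of the 90 A-to-G sites were called higher and 2 lower under TMM scaling, against 8.85% and 2.41% of all sites. With DESeq2 size factors these counts were 8 and 2, against 5.43% and 2.21%.

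For most sites absent from the low glucose libraries, few reads would be expected there at the high glucose share. Of the 191 sites, 35 were seen in both groups, 5 in low glucose alone and 151 in high glucose alone. For 144 of these 151, the high glucose share would give fewer than 2 reads in every low glucose library. Such an expectation did not keep a site out: of all 167 sites with it, 23 were listed in low glucose, against 12 of the 19 sites with 2 or more expected reads in at least 1 low glucose library. In 4 of the 151 the high glucose share would give 2 or more in each: let-7f-5p A19G, miR-146b-5p A16G, miR-22-3p A9G and miR-30d-5p A21G, a set named after its values were seen. The same 4 were the A-to-G sites called higher in high glucose when the filter on reads was dropped (edgeR adjusted p from 0.00795 to 0.0127). In that fit 0.895% of 1117 sites of all types were called higher and 0.627% lower. It used the same counts by which the 4 sites had been picked, so it is no separate support. The 4 sites were at 0 in all 3 low glucose libraries, so no fold is given. All reads of let-7f-5p A19G were also listed under another miRNA.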

How the data were processed

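The authors deposited 1 table of tags per library, with the counts of each tag, its hairpin, its place there and its single mismatch, per the file headers. Counts of a tag listed under several hairpins had been split among them. Novoalign 3.02.12 and cutadapt 1.9.3 were used, per the submitters' processing notes. The hairpin release and the build were not given in the sources used here. The members and lists were chosen with earlier results of these data known. From the tables, reads per site were summed over hairpin copies with the same mature miRNA. A site's share is its changed reads over the reads of the arm that cover it internally. Sites with at least 10 changed reads and at least 200 covering reads in every library were tested with edgeR 4.0.16 (quasi-likelihood, log covering reads as offset, no covariate) over all 12 substitution types, with Benjamini-Hochberg adjustment and a threshold of 0.05. DESeq2 1.42.0 was an alternative. Library values were compared with exact permutation tests (SciPy 1.17.1). Sites named were the 10 with the most reads, the 10 with the largest share among those with at least 20 reads and 200 covering reads, sites called by the test, and sites in arms of the list of known edited miRNAs. Further deep sites, the let-7 seed sites and the sites above the level were named after their values were seen. Mature sequences came from RefSeq (GRCr8), matched by name for 63 of 70 arms, and positions in the others were counted from the start of the most abundant exact tag. The scripts were tested on simulated data.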

Additional observations from a re-analysis of the deposited data

How the results depend on the processing

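The site test called 0 A-to-G sites with each library left out in turn (0 to 0), with DESeq2, after thinning, with other end distances, with exact tags as denominator and without shared tags. It called 13 higher and 2 lower with TMM library sizes in place of the arm, 8 and 2 with DESeq2 size factors, 4 and 1 without the filter, and 1 and 0 with the stricter filter. The first pair of settings compares reads per library, so a change of the arm enters, and they turned the log2 difference of miR-21-5p A16G to -0.45 and -0.59, of A12G to -0.81 and -0.95, of A10G to -0.99 and -1.12, and of let-7c-5p A17G to 2.55 and 2.41. Thinning turned miR-21-5p A10G to -0.27, and leaving out tags under several hairpins or under another miRNA gave 4.06 for let-7c-5p A17G in both cases, a fit on the 12 reads left (edgeR adjusted p 0.755 and 0.738) from which no direction is read. Of 106 such values at 6 sites, 94 kept direction and call, 11 reversed and 1 newly passed. The difference in A-to-G rate (179 changed reads per 1000000 adenosines) became 16.1 after thinning, 0.660 without tags under several hairpins, 109.0 beyond 5 bases from the ends, 209 with exact tags as denominator, 59.2 without tags under another miRNA and 116 with 4 or more bases on each side. It was 170 to 191 with a library left out. The difference in the A-to-G share of substituted reads (0.807 percentage points) turned to -1.19 without tags under several hairpins, -4.15 beyond 5 bases, -2.86 without tags under another miRNA and -2.01 with 4 or more bases on each side. With a library left out it ran from -0.584, without low glucose replicate 3, to 2.16. The 5 sites above the level became 7 without tags under several hairpins, 2 after thinning, 3 beyond 5 bases, 3 with 4 or more bases on each side, 2 at the 99th percentile, and 4 to 6 with a library left out. The ratio of A-to-G to T-to-C rates, without overlap between the groups as deposited, overlapped after thinning (exact permutation p = 0.2). The cause of these shifts was not tested beyond what each setting removes. The settings without tags under another miRNA and with 4 or more bases on each side were chosen after seeing the data. The replicate block called 0 A-to-G sites higher and 0 lower, and 1 of 497 sites of all types. The same-number libraries deviated together with correlations of -0.0224, 0.0758 and -0.0545 over 132 arms. Those with different numbers ran from -0.0938 to 0.117. No pairing by number was seen, and these values cannot settle whether the libraries were paired. Low glucose depth, with a 2-read minimum per tag, limits every site seen in high glucose alone. It can also lower the low glucose share of a site seen in both groups.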
